A study of Mus musculus with 12 samples.

Results

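Kcnb2, Kcnc1, Kcnc2 and Kcnc4, the genes of the voltage-gated potassium channel subunits Kv2.2, Kv3.1, Kv3.2 and Kv3.4, were followed in the cortex and cerebellum of SCA1 KI and WT mice. They were taken from the gene table by symbol, with no threshold on their values, and all 4 were found among the 15759 entries of the gene table. All 4 also passed the filter on low values (a mean of 10 normalized counts or more), which left 15369 genes for testing. Spinocerebellar ataxia type 1 (SCA1) is caused by an expanded run of glutamine codons in Atxn1, the gene of ataxin-1. The SCA1 KI mice (Atxn1 154Q/2Q) had 1 Atxn1 allele with 154 glutamine codons and 1 with 2, and the controls were wild-type (WT) mice. All animals were labelled as male C57BL/6J mice of 12 weeks of age, and the whole cerebellum and cortex were macrodissected. For each region and genotype there were 3 libraries of poly-adenylated RNA, with 29520855 to 51311309 reads on genes per library.

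Kv2 and Kv3 subunits each form the pore of a potassium channel that opens when the neuron is depolarized. Kv3 channels open at strongly depolarized potentials and close fast, which shortens the action potential and lets fast-spiking neurons, such as parvalbumin interneurons of the cortex and Purkinje cells of the cerebellum, fire at high rates. Kv2 channels open more slowly, carry the delayed rectifier current of the soma and proximal dendrites, and can take in electrically silent subunits that form no channel of their own.

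The gene table gave, for each library, the reads of a gene scaled by that library's size factor (normalized read counts). Differences between genotypes are log2 fold changes (LFCs) of SCA1 KI against WT on the log2(normalized count + 1) scale. They were fitted with limma on all 12 libraries, and a gene counted as a differentially expressed gene (DEG) where the adjusted p was under 0.05 and the LFC exceeded 0.25 in size. The limma p-values rest on 1 estimate of spread per gene, pooled over the 4 groups of 3 libraries. They do not measure the spread of any 1 group. In bulk tissue, fewer cells of a type and less RNA per cell cannot be told apart.

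Cortex and cerebellum were told apart by their defining markers. Nrgn, a calmodulin-binding protein of forebrain excitatory neurons, had 39867 to 83271 normalized counts in the cortex and at most 2687 in the cerebellum. Gabra6, a GABA receptor subunit of cerebellar granule cells, had 20711 to 32164 in the cerebellum and at most 42.1 in the cortex, the highest cortical value being that of WT library D. Some libraries stood apart by markers of the midbrain, which borders the cerebellum. A list of 12 midbrain genes summed to 6462 to 11895 normalized counts in WT cerebellar libraries and 2440 to 3073 in SCA1 KI libraries. By limma 8 of 12 were DEGs lower, beside 4.44% of all tested genes, and 0 were higher. At an unadjusted p under 0.05, 9 were lower and 0 higher. In the cortex the same list was higher in the SCA1 KI libraries, at 3037 to 4021 against 1904 to 2215 in WT. There 3 of 12 were DEGs higher by limma, beside 4.82% of all tested genes, and 0 were lower. At an unadjusted p under 0.05, 5 were higher and 0 lower. Pou4f1, a transcription factor of midbrain neurons, had 217 to 372 normalized counts in the SCA1 KI cortex against 2.21 to 6.83 in the WT cortex. Atxn1, the knock-in gene, did not pass the test in either region (cortex LFC −0.31, adjusted p = 0.132, and cerebellum LFC 0.08, adjusted p = 0.837, limma), and gene counts do not measure the length of its repeat.

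In the cortex, Kcnc1 was the only one of the 4 channel genes that passed the test, and its mean count fell by 42.7% in the SCA1 KI mice. Among all tested genes 10.8% were DEGs lower in the SCA1 KI cortex and 4.82% were DEGs higher. With a correction of each library for transcript length and GC content, the share of cortical DEGs that were lower went from 69.2% to 56.0%, and the share of cerebellar DEGs that were lower from 82.9% to 52.0%.

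Kcnc1 encodes Kv3.1, the subunit most closely tied to fast-spiking interneurons in the cortex and abundant in cerebellar granule cells. Its locus is on the plus strand of chromosome 7 from 46396497 to 46438704 (GRCm38), with 9458 bases of exon. Its normalized counts were 12057, 11658 and 11441 in WT cortex libraries B, C and D. They were 6110, 7015 and 7004 in SCA1 KI cortex libraries A, E and F. All 3 SCA1 KI libraries lay far below all WT libraries, and the spread within each genotype was small beside the gap between them. The mean was 11719 ± 312 (SD, n = 3) in WT and 6710 ± 519 (SD, n = 3) in SCA1 KI. The LFC was −0.81 (SE 0.08, 95% interval −0.98 to −0.63, adjusted p = 3.35e-05 from limma), a level 1.75-fold lower in the SCA1 KI cortex. By p-value it ranked 98 among the 15369 genes in this region. Corrected for length and GC content, the LFC of Kcnc1 was −0.57 (adjusted p = 9.43e-05).

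Kcnc2 encodes Kv3.2, which cortical interneurons of the parvalbumin and somatostatin classes use beside Kv3.1. Its locus is on the plus strand of chromosome 10 from 112271121 to 112467024 (GRCm38), with 7138 bases of exon. WT cortex libraries B, C and D had 6923, 7135 and 6016 normalized counts, and SCA1 KI libraries A, E and F had 5137, 6182 and 5693. The genotypes overlapped, since SCA1 KI library E lay above WT library D. The LFC of −0.24 (SE 0.23, 95% interval −0.73 to 0.26) did not pass the test (adjusted p = 0.526, limma).

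Kcnc4 encodes Kv3.4, a Kv3 subunit that inactivates fast and is found in axons and terminals. Its locus is on the minus strand of chromosome 3 from 107438303 to 107459552 (GRCm38), and its 1 annotated transcript has 3667 bases. Its counts were 3096, 2973 and 3049 in the WT cortex and 2720, 2969 and 2735 in the SCA1 KI cortex. The highest SCA1 KI library, E, came within a few counts of the lowest WT library, C, without overlapping it. The LFC was −0.11 (SE 0.06, 95% interval −0.25 to 0.02, adjusted p = 0.225 from limma).

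Kcnb2 encodes Kv2.2, one of the Kv2 pore-forming subunits. The gene spans 15287254 to 15723750 of chromosome 1 (GRCm38, plus strand), with 15165 bases of exon. It had 934, 958 and 862 normalized counts in the WT cortex and 589, 775 and 771 in the SCA1 KI cortex. The genotypes did not overlap, and SCA1 KI library A was the lowest. The LFC of −0.38 (SE 0.14, 95% interval −0.68 to −0.07) did not pass the test after adjustment (adjusted p = 0.0885, limma). It passed at the same LFC of −0.38 without WT cerebellum library 2 (adjusted p = 0.0360), a fit that changed the shared estimate of spread. No library overlapped between the genotypes for Kcnb2, Kcnc1 and Kcnc4 in the cortex, as for 30.9% of all tested genes.

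In the cerebellum, Kcnc2 was 4.55-fold lower and Kcnb2 1.79-fold higher in the SCA1 KI mice, whereas neither Kcnc1 nor Kcnc4 passed the test. Among all tested genes 4.44% were DEGs lower in the SCA1 KI cerebellum and 0.917% were DEGs higher.

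Kcnc2 had 2191, 922 and 1510 normalized counts in WT cerebellum libraries 2, 4 and 6. In SCA1 KI cerebellum libraries 1, 3 and 5 it had 292, 290 and 379. All SCA1 KI libraries were far below all WT libraries, and the WT libraries differed widely among themselves. The mean was 1541 ± 635 (SD, n = 3) in WT and 320 ± 50.6 (SD, n = 3) in SCA1 KI. The LFC was −2.19 (SE 0.23, 95% interval −2.68 to −1.69, adjusted p = 1.23e-04 from limma), which ranked 47 among the tested genes of this region by p-value. Without WT library 2, the one with the highest count, the LFC was −1.89. With the cerebellum fitted on its own, the adjusted p of Kcnc2 was 0.00784 (limma).

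Several marker lists differed between the WT cerebellar libraries and between the genotypes. Library 2 was highest, library 6 next and library 4 lowest for Kcnc2. This order of 3 libraries was shared by 9 of 12 midbrain, 8 of 8 oligodendrocyte and 5 of 6 microglia markers. It was also shared by 4 of 10 hindbrain, 4 of 12 forebrain interneuron and 4 of 10 forebrain excitatory markers. Among astrocyte markers 2 of 6 had it, as did 2 of 5 endothelial, 0 of 10 granule cell and 0 of 10 Purkinje cell markers. The share of all tested genes with this order was not counted. The 8 oligodendrocyte markers summed to 183472 to 274306 normalized counts in WT and 156070 to 156719 in SCA1 KI, with a median LFC of −0.52. By limma 2 of 8 were DEGs lower, beside 4.44% of all tested genes, and 0 were higher. With DESeq2 5 were lower, and 7 were lower at an unadjusted p under 0.05 by limma, which was common in this region, as given above. The hindbrain list summed to 1843 in WT library 2 and to 727 to 927 in the other 5 libraries. The midbrain list summed to 11895, 6462 and 8176 in WT libraries 2, 4 and 6 and to 2440, 2776 and 3073 in SCA1 KI libraries 1, 3 and 5. Pou4f1 had 139, 46.4 and 83.9 normalized counts in the WT libraries and 2.53, 6.87 and 10.6 in the SCA1 KI libraries, close to 0. Shox2, another midbrain transcription factor, had 210, 120 and 185 in WT and 4.21, 0 and 9.68 in SCA1 KI. Nrgn had 2687, 1777 and 2480 in WT and 155, 96.8 and 118 in SCA1 KI. Of 12 markers of inhibitory forebrain interneurons, 4 (Sst, Tac1, Vip and Nxph1) were DEGs lower in the SCA1 KI cerebellum by limma. The share of all tested genes was 4.44%. Among the 12 markers 0 were DEGs higher, and 1 was higher at an unadjusted p under 0.05. Sst, the gene of somatostatin, had 864, 368 and 528 normalized counts in WT and 56.4, 41.2 and 72.6 in SCA1 KI. The part of these markers in the difference of Kcnc2 was not tested, and a difference in dissected tissue cannot be told apart from genotype where all libraries of a group share it.

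**Figure D1:**
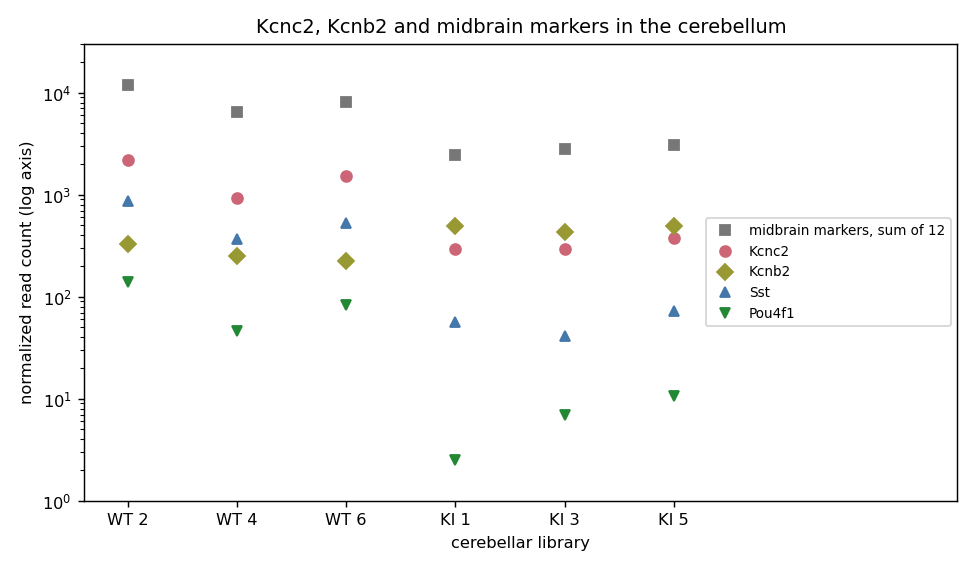
Normalized read counts (log axis) of Kcnc2, Kcnb2, Sst, Pou4f1 and the sum of 12 midbrain markers in each of the 6 cerebellar libraries, WT 2, 4 and 6 and SCA1 KI 1, 3 and 5. Kcnc2, Sst, Pou4f1 and the midbrain sum are all higher in the WT libraries and share their order there, whereas Kcnb2 is higher in the SCA1 KI libraries.

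Kcnb2 went the other way. It had 327, 248 and 222 normalized counts in WT cerebellum libraries 2, 4 and 6, and 496, 430 and 488 in SCA1 KI libraries 1, 3 and 5. Every SCA1 KI library was above every WT library. The mean was 266 ± 54.4 (SD, n = 3) in WT and 471 ± 36.2 (SD, n = 3) in SCA1 KI, and the LFC was 0.84 (SE 0.14, 95% interval 0.53 to 1.15, adjusted p = 0.00381 from limma). WT library 2, with the highest midbrain sum, also had the most Kcnb2 among the WT libraries, and the LFC without it was 1.00. The markers of cerebellar granule cells summed to 162620 in WT library 2, and to 221866 to 231484 in the other 5 cerebellar libraries. Of these 10 granule cell markers, 0 were DEGs in the cerebellum by limma, edgeR or DESeq2, and 1 was higher at an unadjusted p under 0.05. Their part in the difference of Kcnb2 was not tested.

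Kcnc1 is the Kv3 gene of granule cells, the most numerous neurons of the cerebellum. Its normalized counts were 24407, 27519 and 30216 in WT libraries 2, 4 and 6 and 24669, 22328 and 23134 in SCA1 KI libraries 1, 3 and 5. SCA1 KI library 1 lay above WT library 2, so the genotypes overlapped. The LFC was −0.22 (SE 0.08, 95% interval −0.40 to −0.05) and did not pass the test (adjusted p = 0.148, limma). Kcnc1 was lowest in WT library 2, which had the highest midbrain sum, and without that library its LFC was −0.30 and passed (adjusted p = 0.0491).

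Kcnc4 had 2376, 2169 and 2371 normalized counts in WT and 2052, 1885 and 2016 in SCA1 KI cerebellar libraries, with no overlap between the genotypes. Its LFC of −0.22 (SE 0.06, 95% interval −0.35 to −0.08) passed neither the p threshold (adjusted p = 0.0596, limma) nor the size threshold of 0.25. With DESeq2 the adjusted p was 0.0148 at the same LFC of −0.22, which is still under that size. Without WT library 4, the lowest of its group, the LFC was −0.26 and passed (adjusted p = 0.0386). In the cerebellum no library overlapped between the genotypes for Kcnb2, Kcnc2 and Kcnc4, as for 31.8% of all tested genes.

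**Figure D2:**
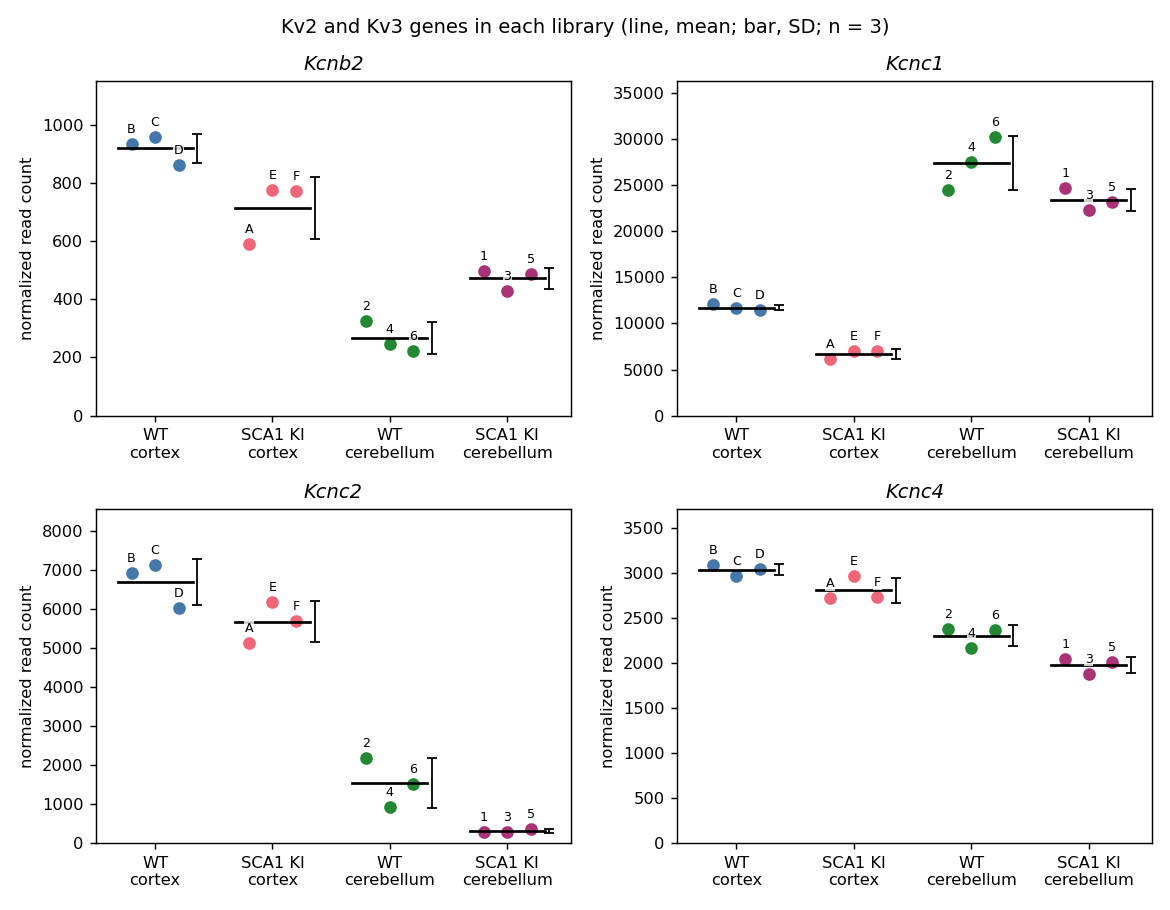
Normalized read counts of Kcnb2, Kcnc1, Kcnc2 and Kcnc4 in each library (points, marked with the library's letter or number), with the mean (line) and SD (bar, n = 3) of each group. Kcnc1 passed the test between genotypes in the cortex, and Kcnc2 and Kcnb2 passed it in the cerebellum in opposite directions. The libraries of the genotypes also did not overlap for Kcnb2 and Kcnc4 in the cortex and for Kcnc4 in the cerebellum.

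The difference between the genotypes was not the same in both regions for 3 of the 4 genes. This was tested as the interaction of region and genotype in the same fit, which passed for 8.15% of all tested genes. For Kcnb2, the cortex LFC minus the cerebellum LFC was −1.22 (95% interval −1.65 to −0.78, adjusted p = 0.00290, limma). For Kcnc1 it was −0.58 (95% interval −0.83 to −0.34, adjusted p = 0.00732). For Kcnc2 it was 1.95 (95% interval 1.25 to 2.65, adjusted p = 0.00306). The LFC of Kcnc1 was thus lower in the cortex, that of Kcnc2 was lower in the cerebellum, and that of Kcnb2 was above 0 in the cerebellum and below 0 in the cortex. The midbrain sum was lower in the SCA1 KI cerebellum and higher in the SCA1 KI cortex than in WT, and its part in these differences was not tested. For Kcnc4 the difference of 0.10 (95% interval −0.08 to 0.29) did not pass (adjusted p = 0.556).

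**Figure D3:**
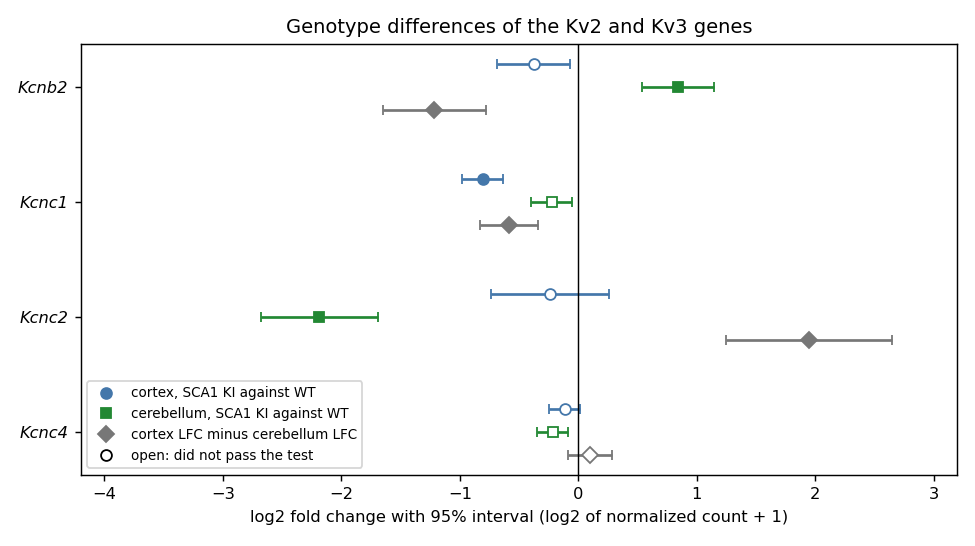
LFC of SCA1 KI against WT in the cortex and cerebellum, and the difference between these LFCs, for each of the 4 genes, with 95% intervals from limma on the log2(normalized count + 1) scale. Filled symbols passed the test: Kcnc1 in the cortex, Kcnb2 and Kcnc2 in the cerebellum, and the regional differences of Kcnb2, Kcnc1 and Kcnc2.

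Regional levels differed for every gene of the set. In WT mice, Kcnb2 was higher in the cortex than in the cerebellum by 1.80 on the log2 scale, Kcnc2 by 2.20 and Kcnc4 by 0.40, and Kcnc1 was lower in the cortex, with a log2 difference of −1.22. All 4 differences passed the test (adjusted p = 6.94e-05 or less, limma). Regional differences were common, with 31% of tested genes higher and 30.7% lower in the WT cortex. Corrected for length and GC content together, the value for Kcnc4 was 0.19 and no longer over 0.25. In SCA1 KI mice the same directions held, with log2 differences of 0.59 for Kcnb2, 4.15 for Kcnc2, 0.50 for Kcnc4 and −1.80 for Kcnc1, beside 32% of tested genes higher and 30.5% lower in the cortex. Kcnc2 was thus 4.60-fold higher in the cortex than in the cerebellum of WT mice and 17.7-fold higher in SCA1 KI mice.

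Per kilobase of exon, which allows levels of different genes to be compared, Kcnb2 was the lowest of the 4 in every group. In the WT cortex the level per kilobase was 1239 ± 33.0 normalized counts for Kcnc1, 937 ± 83.3 for Kcnc2, 829 ± 16.9 for Kcnc4 and 60.5 ± 3.29 for Kcnb2 (SD, n = 3). The libraries of Kcnc2 and Kcnc4 overlapped there, and those of Kcnc1 lay above both. In the SCA1 KI cortex the levels per kilobase were 709 ± 54.9 for Kcnc1, 794 ± 73.2 for Kcnc2, 766 ± 38.1 for Kcnc4 and 46.9 ± 7.0 for Kcnb2. Kcnc1, the highest in WT, had the lowest mean of the 3 Kv3 genes, but neighbours in this order did not differ beyond their spread. With the length of the longest transcript in place of all merged exons, the order in the SCA1 KI cortex was Kcnc2 (1124), Kcnc1 (865) and Kcnc4 (766), so the place of Kcnc1 depended on the gene model.

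The cerebellum was dominated by Kcnc1. Its level per kilobase was 2895 ± 307 in WT and 2472 ± 126 in SCA1 KI, followed by Kcnc4 with 629 ± 32.2 in WT and 541 ± 23.8 in SCA1 KI (SD, n = 3). Kcnc2 had 216 ± 89.0 normalized counts per kilobase in WT and 44.9 ± 7.08 in SCA1 KI, and Kcnb2 had 17.5 ± 3.59 and 31.1 ± 2.39. Kcnc2 and Kcnb2 were thus much closer to each other in the SCA1 KI cerebellum than in WT.

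**Figure D4:**
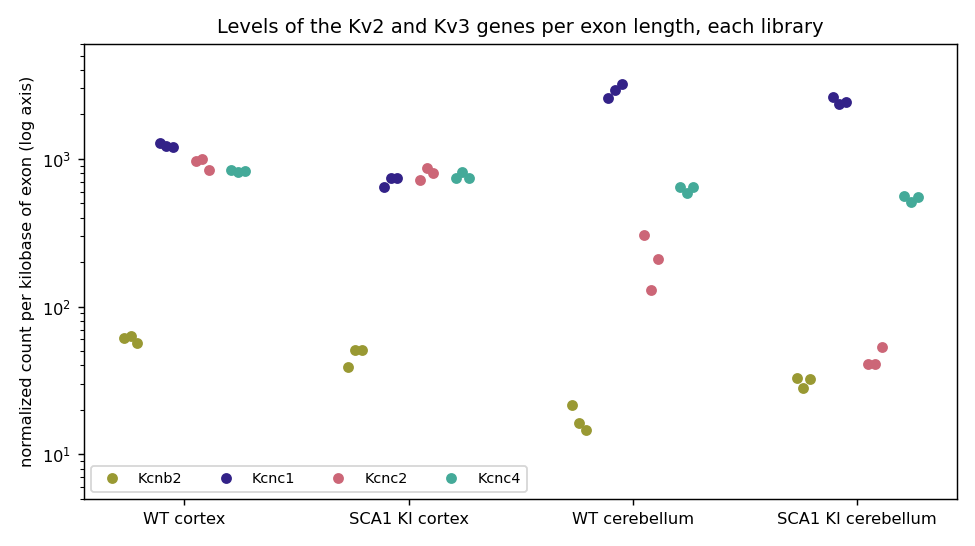
Normalized counts per kilobase of merged exon (log axis) of the 4 genes in each library of the 4 groups. Kcnc1 leads in both cerebellar groups and in the WT cortex, the Kv3 genes come together in the SCA1 KI cortex, and Kcnc2 and Kcnb2 approach each other in the SCA1 KI cerebellum.

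Ratios of Kv3 genes within a library, which do not depend on its size factor, were compared between the genotypes. In the cortex, Kcnc2 counts were 57.4%, 61.2% and 52.6% of Kcnc1 counts in WT libraries B, C and D. They were 84.1%, 88.1% and 81.3% in SCA1 KI libraries A, E and F, all above every WT library. The log2 ratio was higher by 0.57 in SCA1 KI (2-sided exact permutation p = 0.1, the smallest that 3 against 3 libraries allow). Kcnc4 counts were 25.7%, 25.5% and 26.6% of Kcnc1 counts in the WT cortex and 44.5%, 42.3% and 39.1% in the SCA1 KI cortex, a log2 difference of 0.69 (exact permutation p = 0.1).

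In the cerebellum, Kcnc2 counts were 8.98%, 3.35% and 5.0% of Kcnc1 counts in WT libraries 2, 4 and 6 and 1.18%, 1.30% and 1.64% in SCA1 KI libraries 1, 3 and 5. The groups did not overlap, and the log2 ratio differed by −1.96 (exact permutation p = 0.1). Kcnc4 counts were 9.74%, 7.88% and 7.85% of Kcnc1 counts in WT and 8.32%, 8.44% and 8.71% in SCA1 KI. The genotypes overlapped for this ratio (log2 difference 0.0075, exact permutation p = 1). The 4 ratio tests formed a family in which no p could pass 0.05, adjusted or not.

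Markers of the cells in which Kv3 genes are prominent were read beside Kcnc1. Of the 12 interneuron markers, 3 were DEGs lower in the SCA1 KI cortex by limma, beside 10.8% of all tested genes, and 0 higher. At an unadjusted p under 0.05, 5 were lower and 0 higher. Such p-values were common in the cortex, where Kcns3 at 0.0368 (limma) ranked 4237 among the 15369 tested genes. The median LFC of the list was −0.24. The 12 markers summed to 41014 to 43661 normalized counts in the WT cortex and to 31102, 31060 and 41902 in SCA1 KI libraries A, E and F. Pvalb, the gene of parvalbumin, had 1888, 2070 and 2167 normalized counts in WT and 1799, 1164 and 1026 in SCA1 KI. Gad1, an enzyme of GABA synthesis, had 15672, 17177 and 14543 in WT and 10391, 9960 and 15740 in SCA1 KI, so that library F was at the WT level. Gad2 (LFC −0.06), Slc32a1 (0.09), Tac1 (0.19) and Dlx1 (0.47) of the same list did not pass in the cortex. Of 10 markers of forebrain excitatory neurons, 3 were DEGs lower in the SCA1 KI cortex, beside the same 10.8%, and 0 were higher. At an unadjusted p under 0.05, 4 were lower and 0 higher. The 10 markers summed to 332229 to 360365 in WT and 181006 to 211985 in SCA1 KI. The part of either list in the difference of Kcnc1 was not tested.

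The 250 bases before the start sites of Kcnc1 and Kcnc2 are shown because these Kv3 genes were each reduced in a different region. They were read from RefSeq promoters (GRCm38.p6), which matched 3 of the 4 genes. For Kcnc1 the stretch is chr7:46396218-46396467 (plus strand), and for Kcnc2 it is chr10:112270871-112271120 (plus strand, the one of its 4 listed start sites that coincides with the start of the GENCODE gene). Capitals mark matches on either strand to TGACG (the core of the cAMP response element) or GGGCGG (a GC box), which do not overlap here.
Kcnc1: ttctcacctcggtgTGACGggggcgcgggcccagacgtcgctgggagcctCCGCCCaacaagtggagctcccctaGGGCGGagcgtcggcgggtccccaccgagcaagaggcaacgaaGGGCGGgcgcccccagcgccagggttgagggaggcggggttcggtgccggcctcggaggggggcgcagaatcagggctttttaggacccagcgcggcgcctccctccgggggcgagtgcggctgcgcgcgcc
Kcnc2: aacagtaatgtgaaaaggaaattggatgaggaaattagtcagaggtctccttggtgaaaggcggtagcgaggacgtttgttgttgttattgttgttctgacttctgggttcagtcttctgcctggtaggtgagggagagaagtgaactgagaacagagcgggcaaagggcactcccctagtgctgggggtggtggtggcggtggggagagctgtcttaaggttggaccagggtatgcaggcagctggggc
In the full windows, with 50 bases more on the gene side, Kcnc1 held TGACG once and GGGCGG at 3 places. Kcnc2 held neither in the window shown, while 1 of its other start-site windows held GGGCGG once. The window of Kcnc4, which passed in neither region with all libraries kept, held TGACG once and GGGCGG once. TGACG was found in 20.8% and GGGCGG in 35.7% of all 32851 RefSeq promoters of this length. TATAAA (13.6% of promoters) and the octamers TGAATGAA (1.30%) and TGAATGGA (1.21%) bound by Capicua, a DNA-binding partner of ataxin-1, were in none of the windows of Kcnc1, Kcnc2 and Kcnc4. The windows were 74.7% G or C with 41 CpG sites for Kcnc1, 52.7% with 5 for Kcnc2 and 66.7% with 17 for Kcnc4, against medians of 52.7% and 7 over all promoters. Such matches describe the letters of the window and no bound factor.

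The silent subunits (KvS), which form channels only together with Kv2 subunits, were measured as a list of 10 genes, all of which were tested. Their LFC was below 0 for 9 of 10 in the cortex and for 10 of 10 in the cerebellum. In the cortex 3 were DEGs lower, beside 10.8% of all tested genes, and 0 were higher by limma, edgeR or DESeq2 or at an unadjusted p under 0.05. The median LFC of the list was −0.49, beside −0.0028 over all tested genes. Kcnv2 had at most 1 read in any cortex library, and without it the median was −0.52. The count of 3 became 5 with edgeR and 1 after the correction for length and GC content. It was 1 without WT library B, when only Kcng4 passed, and 2 without WT library C, SCA1 KI library A or SCA1 KI library F.

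Kcng4 (Kv6.4) had 418, 465 and 400 normalized counts in the WT cortex and 171, 226 and 255 in the SCA1 KI cortex, with no overlap. Its LFC was −0.99 (SE 0.12, adjusted p = 1.55e-04, limma), and it was the one silent subunit that passed in the cortex under every alternative. Kcns1 (Kv9.1) had 1190, 1294 and 1181 in WT and 981, 880 and 685 in SCA1 KI (LFC −0.54, adjusted p = 0.0249). Kcns2 (Kv9.2) had 1917, 1716 and 1809 in WT and 1336, 1464 and 1604 in SCA1 KI (LFC −0.31, adjusted p = 0.0135). In all 3 genes every SCA1 KI library was below every WT library.

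Kcnv1 (Kv8.1) had 7213, 7789 and 7309 normalized counts in the WT cortex and 3985, 4452 and 4206 in the SCA1 KI cortex. The genotypes were well separated, but the LFC of −0.82 (SE 0.45) did not pass (adjusted p = 0.243, limma). The estimate of spread was shared with the cerebellum, where the counts of Kcnv1 were low. Kcnv1 passed in edgeR and with the cortex fitted on its own.

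In the cerebellum 5 of the 10 silent subunits were DEGs lower, beside 4.44% of all tested genes, and 0 were higher by limma, edgeR or DESeq2, and 9 were lower at an unadjusted p under 0.05. The median LFC was −0.94, beside −0.0049 over all tested genes. Those lower were Kcnv1 (LFC −2.38, adjusted p = 0.00779), Kcng2 (Kv6.2, −1.02, 0.0164), Kcns3 (Kv9.3, −0.95, 0.0244), Kcnf1 (Kv5.1, −0.92, 0.0242) and Kcns1 (−0.67, 0.0196). These were scarce there. Kcnv1 had 54.8, 19.5 and 23.3 normalized counts in WT libraries 2, 4 and 6 and 8.43, 1.37 and 7.74 in SCA1 KI libraries 1, 3 and 5, and Kcnf1 had 176, 80.6 and 118 against 70.8, 54.9 and 62.0. WT library 2, with the highest midbrain sum, was the highest for all 5 genes, and without it only Kcnv1 passed. Without SCA1 KI library 3 only Kcnv1 passed as well, and with the cerebellum fitted on its own none of the 5 passed and Kcng4 did. The count was 2 without WT library 6, 3 without SCA1 KI library 1 and 8 with DESeq2. The part of the midbrain, oligodendrocyte or hindbrain markers in these differences was not tested.

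Kcng4, unlike these 5, was higher in the cerebellum than in the cortex. It had 5968, 6495 and 6504 normalized counts in WT and 4876, 5268 and 4600 in SCA1 KI, without overlap, and its LFC of −0.36 did not pass (adjusted p = 0.111, limma). It passed with edgeR, with DESeq2, with the cerebellum fitted on its own and without SCA1 KI cortex library A. The LFC of Kcng4 was lower in the cortex than in the cerebellum by a tested difference of −0.62 (adjusted p = 0.0397).

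**Figure D5:**
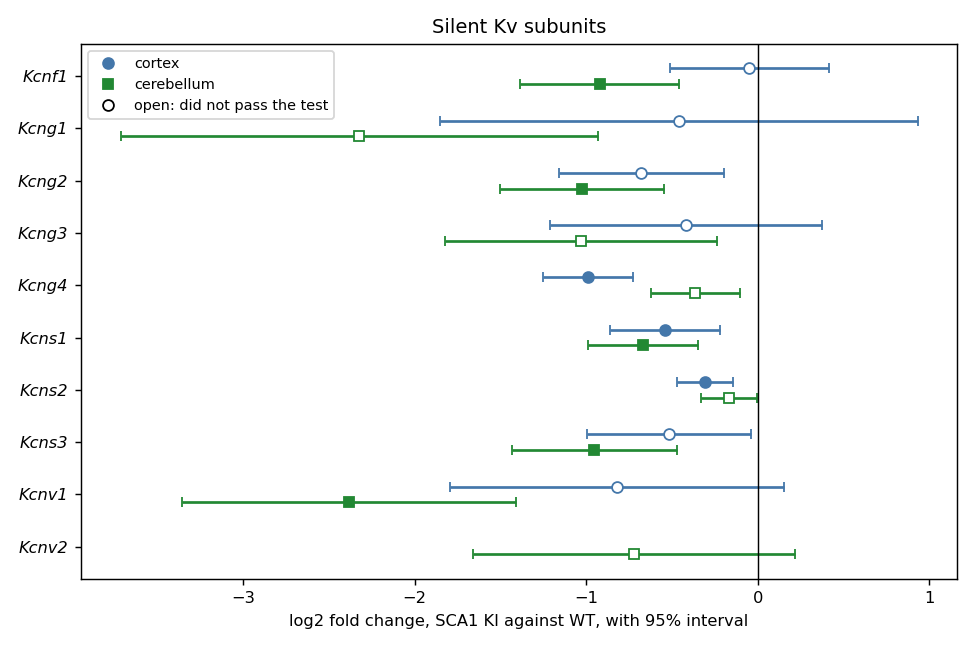
LFC of SCA1 KI against WT for the silent Kv subunits in the cortex and cerebellum, with 95% intervals from limma. Filled symbols passed the test: Kcng4, Kcns1 and Kcns2 in the cortex and Kcnf1, Kcng2, Kcns1, Kcns3 and Kcnv1 in the cerebellum. Kcnv2 has no cortex value because at most 1 read was counted in any cortex library.

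Auxiliary and partner proteins of these channels were read from a list of 14 symbols, of which 11 were tested. Kcne1 and Kcne3 were not analysed here, and Kcne5 was tested under its older symbol, Kcne1l. In the cortex 2 were DEGs lower, beside 10.8% of all tested genes, and 0 were higher by limma (3 lower and 1 higher at an unadjusted p under 0.05, 0 higher with edgeR and DESeq2), with a median LFC of −0.0031. Amigo1, a cell adhesion protein that clusters with Kv2 channels, had 5364, 5780 and 4624 normalized counts in the WT cortex and 3738, 4628 and 4612 in the SCA1 KI cortex (LFC −0.28, adjusted p = 0.0490). Ank3, the gene of ankyrin-G at the axon initial segment, had 15106, 12889 and 11829 in WT and 8808, 11989 and 10792 in SCA1 KI (LFC −0.34, adjusted p = 0.0417). The genotypes overlapped for both genes, and both calls lay close to the threshold. With edgeR, with median centring and with no filter only Ank3 passed, and neither passed with the cortex fitted on its own or after the correction for length and GC content. Neither passed without SCA1 KI cortex library A, without WT cortex library B or C, or without any 1 of WT cerebellum libraries 4 and 6 and SCA1 KI cerebellum libraries 1, 3 and 5. Without WT cortex library D or SCA1 KI cortex library E, 3 were lower (Amigo3 beside both) and 1, Kcne1l, was higher. In the cerebellum, where 4.44% of all tested genes were lower, 0 of the 11 passed with limma, edgeR or DESeq2, 1 was lower at an unadjusted p under 0.05, and the median LFC was −0.15. Vapa and Vapb, which tether Kv2 clusters of the plasma membrane to the endoplasmic reticulum, had LFCs between −0.07 and −0.0031 in both regions.

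Genes with the most similar pattern were listed for each channel gene as a description, by Pearson's r of log2(normalized count + 1) over the 12 libraries among 12660 genes with a mean of at least 100. The 12 points share region, dissection and depth, so the first of these correlations mostly rank genes by their regional difference. They were Sstr3, Slc9a9 and Xkr4 for Kcnb2 (r = 0.96 each), Lingo3, Tmem200b and Hbegf for Kcnc1 (r = 0.99 to 1.00), Hs3st4 and Sst for Kcnc2 (r = 1.00 each) and Unc5d, Chrm3 and Rcor2 for Kcnc4 (r = 0.99 each). With the mean of each region subtracted, r was highest with Dgkz, Camkk2 and Ackr1 for Kcnc1 (0.99, 0.98 and 0.98) and with Camkv, Grm5 and Hs3st4 for Kcnc2 (0.99, 0.99 and 0.99). On that scale it was highest with Tbr1, Slitrk2 and Ulk2 for Kcnb2 (0.92, 0.90 and 0.89) and with Dlgap2, Neurl1b and Kctd16 for Kcnc4 (0.95, 0.94 and 0.94). Genes with r over 0.9 on that scale numbered 324 for Kcnc1, 183 for Kcnc2, 25 for Kcnc4 and 2 for Kcnb2. Among the channel genes themselves, r with region means subtracted was 0.86 between Kcnc2 and Kcnc4, 0.61 between Kcnc1 and Kcnc4 and −0.64 between Kcnb2 and Kcnc2.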

How the data were processed

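Poly-adenylated RNA of whole cortex and cerebellum was measured in 12 libraries, 3 for each region and genotype. From paired-end reads aligned to mm10 with STAR and counted with featureCounts, the authors divided the counts by 1 DESeq2 size factor per library and deposited this signal. Versions and gene annotation are not given in the sources used here. In every library 100% of the values were whole reads (tolerance 0.05 reads), which were recovered for edgeR and DESeq2. Each library had 29520855 to 51311309 reads on genes. Columns were assigned to groups by the region and genotype in their names, and libraries are called by the letter or number there. The labels give the sex as male, whereas the published methods describe both sexes together. Nothing says whether libraries came from separate animals.

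The channel genes and gene lists were chosen with earlier results of these data known. Values were fitted with limma 3.58.1 (R 4.3.3, empirical Bayes with a mean trend) on log2(normalized count + 1) with 1 mean per group, for 15369 genes (mean normalized count 10 or more), and adjusted over all of them by the Benjamini-Hochberg method. The pseudocount makes fold changes of weakly expressed genes too small. Named genes were the channel genes, members of both gene lists that passed in either region, the 3 genes with the most similar pattern to each, Atxn1 and preset markers. Some further names were picked once the values were known (Kcnv1 in the cortex, Kcng4 in the cerebellum, Kcnv2, Vapa, Vapb, and Sst with the other interneuron markers). Some of these and some Kv2 and Kv3 genes are not reported here. Exon lengths are from GENCODE vM21 (GRCm38), where no exon of the 4 genes overlaps another gene. Alternatives were pseudocounts of 0.5 and 5, a filter at a mean of 100 or none, median centring, each region alone, edgeR 4.0.16, DESeq2 1.42.0, a correction of each library for transcript length and GC content (its trend on both subtracted, 14608 genes with both values, 95%), and leaving out each library. The scripts were tested on simulated counts.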

Additional observations from a re-analysis of the deposited data

Results flagged for a closer look

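For 3 of the 4 channel genes and 1 of the 10 silent subunits, the LFC differed between cortex and cerebellum. This was the tested interaction of region and genotype (limma, adjusted p under 0.05), which passed for 8.15% of all tested genes. The cortex LFC minus the cerebellum LFC was −1.22 for Kcnb2, −0.58 for Kcnc1, 1.95 for Kcnc2 and −0.62 for Kcng4. Each group held 3 libraries, too few to test for a single outlying library. Leaving out 1 library at a time, the difference ranged from −1.37 to −1.09 for Kcnb2, from −0.66 to −0.50 for Kcnc1 and from 1.65 to 2.27 for Kcnc2. The part of the midbrain markers in these differences was not tested.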

How the results depend on the processing

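Of 408 differences of the channel genes recomputed under the alternatives, 403 kept their direction and their side of the threshold. With all libraries kept, the LFC of Kcnc1 in the cortex ranged from −0.81 to −0.57 (adjusted p = 2.59e-18 to 5.55e-04), of Kcnb2 in the cerebellum from 0.82 to 0.88 (5.46e-06 to 0.0205) and of Kcnc2 in the cerebellum from −2.28 to −2.14 (2.09e-14 to 0.00784). Leaving out 1 library at a time, they ranged from −0.84 to −0.74, from 0.72 to 1.00 and from −2.51 to −1.89, and all passed. Corrected for length and GC content, the LFC of Kcnc4 in the cortex was 0.011 and its WT regional difference 0.19, and the cause was not tested. Without 1 library, the LFC of Kcnb2 in the cortex ranged from −0.44 to −0.25 (passing only without WT cerebellum library 2, at −0.38), of Kcnc1 in the cerebellum from −0.30 to −0.15, of Kcnc4 in the cerebellum from −0.26 to −0.18, and the log2 ratio of Kcnc4 to Kcnc1 in the cerebellum from −0.045 to 0.11. Silent subunits called lower in the cortex numbered 5 with edgeR, 1 after that correction and 1 to 4 without 1 library, and in the cerebellum 1 with the region alone, 8 with DESeq2 and 1 to 7 without 1 library. Partner genes called lower in the cortex numbered 0 with the region alone or after that correction, 1 with no filter, median centring or edgeR, and 0 to 3 without 1 library. Those called higher numbered 1 after that correction and 0 to 1 without 1 library, and 1 was called lower in the cerebellum with the region alone. No paired analysis was possible because the columns carry no replicate number of the labels. Low counts limit the silent subunits of the cerebellum, and 3 libraries a group limit the exact tests to p = 0.1.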
